A study of Mus musculus with 16 samples.

Results

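Homeobox and paired-box genes outside the Hox clusters were examined in the chromatin of haploid mouse spermatids. The 57 genes were listed by name from the Pax (9), Lhx (8), Nkx (8), Dlx (6), and Irx (6) families and from Six2 to Six6 (5), with 15 further genes (Otx1, Otx2, Emx1, Emx2, Msx1, Msx2, En1, En2, Barhl1, Barhl2, Cdx1, Cdx2, Gbx2, Gsx2 and Pitx1), and they make up 57 of 21938 protein-coding genes of the GENCODE vM21 annotation of mm10. Their products are DNA-binding proteins that lay out body regions and specify cell types in the embryo, among them neurons, heart, limb, kidney, eye, and pancreas cells. Outside the cells that use them, such genes are classical targets of Polycomb proteins, which place trimethylation on lysine 27 of histone H3 (H3K27me3). Trimethylation of lysine 4 (H3K4me3) marks active or poised gene starts, and trimethylation of lysine 9 (H3K9me3) marks heterochromatin. Starts that carry both H3K4me3 and H3K27me3 are usually called bivalent.

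Haploid spermatids were sorted by DNA content, with Hoechst and propidium iodide, from the testes of 2-month-old males. KO males carried small deletions, made by genome editing, that disrupt the reading frames of all 3 X-linked genes for the short histone variant H2A.B (H2afb1, H2afb2, and H2afb3), and came from 1 line backcrossed to C57BL/6J, and WT males were their brothers. AutoCUT&RUN, in which micrococcal nuclease tethered to an antibody releases the DNA around its target, was run for each of the 3 histone marks, and with a nonspecific IgG as background. This gave 8 groups of 2 libraries, 16 in all, and replicates 1 and 2 were taken to be the 2 sibling pairs that the paper names.

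Fragments with different coordinates were counted once per library. The H3K4me3 libraries held 784360 to 3394830 of these distinct fragments, H3K27me3 200457 to 3806026, H3K9me3 5009169 to 6746382, and IgG 159611 to 270598. Levels are FPM (fragments per 1000000 distinct fragments of the library) whose midpoint lies within 1 kb of the gene start, so lower levels in a library could come from fewer cells with the mark or from less of it per cell, which cannot be told apart in sorted bulk cells. The 4 IgG libraries together held so few fragments that 0 at a gene still allows 3.79 FPM, by the limit of 3 counts, which covers counting error only. Starts of 20 spermatid marker genes had a median of 19.998 FPM of H3K4me3 and 0.195 of H3K27me3. For 15 markers of somatic testis cells the medians were 0.303 and 21.9 FPM, for 8 of spermatogonia 1.43 and 22.6 FPM, and for 10 of blood cells 0.184 and 0.109 FPM, so H3K4me3 was high only in the spermatid list among these 4. The lesions are small and the H2A.B genes held few fragments, so the counts do not check the genotype. H2afb2 had 5 fragments over the 8 KO libraries and 8 over the 8 WT libraries. H2afb1 had 8 and 2, and H2afb3 had 6 in each genotype. The 3 genes are close copies, so even these few fragments may be placed on the wrong one.

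The 5 starts shown here are examples of different levels of H3K27me3 and H3K4me3 among the 57 genes. Pax6, a master regulator of eye and pancreas development, and Nkx2-3, needed for spleen and gut development, had some of the highest H3K27me3 with almost no H3K4me3. Nkx6-2 and Nkx6-1, which pattern the ventral neural tube, had both marks. Irx2, an Iroquois patterning gene, had 6.32 FPM of H3K4me3 and 4.37 FPM of H3K27me3 at the start shown. Its class, given below, changed with the way the libraries were combined. Each line gives 300 bases from NCBI RefSeq on GRCm38.p6, 250 before and 50 after the RefSeq start, read 5′ to 3′ on the strand of the gene, with CG dinucleotides (CpG) in capitals because CpG-dense starts are those where both marks are usually found.
Pax6 (chr2:105668646-105668945, + strand): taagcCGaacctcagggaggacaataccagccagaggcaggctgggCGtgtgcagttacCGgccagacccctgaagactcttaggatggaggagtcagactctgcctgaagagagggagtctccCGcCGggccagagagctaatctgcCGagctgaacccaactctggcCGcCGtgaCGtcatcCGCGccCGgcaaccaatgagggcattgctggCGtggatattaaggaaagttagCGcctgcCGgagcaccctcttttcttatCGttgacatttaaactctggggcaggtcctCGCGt
Nkx2-3 (chr19:43612075-43612374, + strand): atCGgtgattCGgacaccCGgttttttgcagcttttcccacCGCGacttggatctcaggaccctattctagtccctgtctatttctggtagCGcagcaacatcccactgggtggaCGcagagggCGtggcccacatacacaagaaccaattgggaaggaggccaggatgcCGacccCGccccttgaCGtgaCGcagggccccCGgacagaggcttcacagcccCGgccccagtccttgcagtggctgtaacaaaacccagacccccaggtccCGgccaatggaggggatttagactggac
Nkx6-2 (chr7:139582748-139583047, - strand): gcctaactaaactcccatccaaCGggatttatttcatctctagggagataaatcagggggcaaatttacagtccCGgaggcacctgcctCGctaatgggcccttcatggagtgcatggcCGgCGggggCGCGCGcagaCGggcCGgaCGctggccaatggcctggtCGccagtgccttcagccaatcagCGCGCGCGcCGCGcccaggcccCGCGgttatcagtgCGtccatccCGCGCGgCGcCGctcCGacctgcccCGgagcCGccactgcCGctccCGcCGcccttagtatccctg
Nkx6-1 (chr5:101664662-101664961, - strand): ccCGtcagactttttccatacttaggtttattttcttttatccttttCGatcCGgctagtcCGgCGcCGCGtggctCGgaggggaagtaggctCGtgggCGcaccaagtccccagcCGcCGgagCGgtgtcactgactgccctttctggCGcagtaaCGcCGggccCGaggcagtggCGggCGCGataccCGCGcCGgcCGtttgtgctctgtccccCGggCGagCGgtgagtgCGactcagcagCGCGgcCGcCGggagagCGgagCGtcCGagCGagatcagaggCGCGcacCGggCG
Irx2 (chr13:72628570-72628869, + strand): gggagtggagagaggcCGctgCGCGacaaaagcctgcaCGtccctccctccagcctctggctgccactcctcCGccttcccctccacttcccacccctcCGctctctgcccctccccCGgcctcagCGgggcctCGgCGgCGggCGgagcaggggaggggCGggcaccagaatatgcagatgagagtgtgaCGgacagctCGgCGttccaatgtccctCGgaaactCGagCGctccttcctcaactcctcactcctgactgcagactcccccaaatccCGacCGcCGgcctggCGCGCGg
The stretch of Nkx6-1 starts from a RefSeq start 285 bp from the GENCODE start, and in the other 4 genes the difference was at most 4 bp. The stretch of Pax6 held 18 CpG and that of Nkx2-3 held 15. Those of Nkx6-2, Nkx6-1, and Irx2 held 32, 40, and 25. A RefSeq stretch was available for 42 of the 57 genes. In 33 of them the RefSeq start was within 1 kb of the GENCODE start, and these held a median of 22 CpG (range 4 to 42), against 7 over 32851 RefSeq promoters. At least 15 CpG were found in 81.8% of the 33 and in 34.6% of all promoters, whereas at least 1 CpG was found in 94.6% of all promoters. Over the whole 2-kb window, the ratio of observed to expected CpG had a median of 0.612 for the 57 genes and 0.474 for all genes.

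H3K27me3 covered nearly all of the 57 starts. Their median level was 42.1 FPM, against 0.351 FPM over all protein-coding genes, which placed the median homeobox gene at percentile 97.0 of all genes. The level was above what 0 IgG fragments allow for 55 of the 57 starts (23.2% of all genes), and 44 of the 57 starts were in the top 10% of all genes. By library, the 57 starts took 0.245% and 0.207% of all H3K27me3 fragments in the KO libraries and 0.205% and 0.250% in the WT libraries, and the 95% Wilson intervals spanned 0.196% to 0.273% over the 4 libraries. These shares are 47.6 to 58.1 times what the same length of genome would hold on average. In the IgG libraries the 57 starts held 5 to 12 fragments each, between 0.584 and 1.14 times the genome average, with 3 of the 57 in the top 10.2% of all genes for IgG. All 4 libraries therefore placed H3K27me3 on these genes at a similar share, also the WT library with the fewest fragments.

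**Figure D1:**
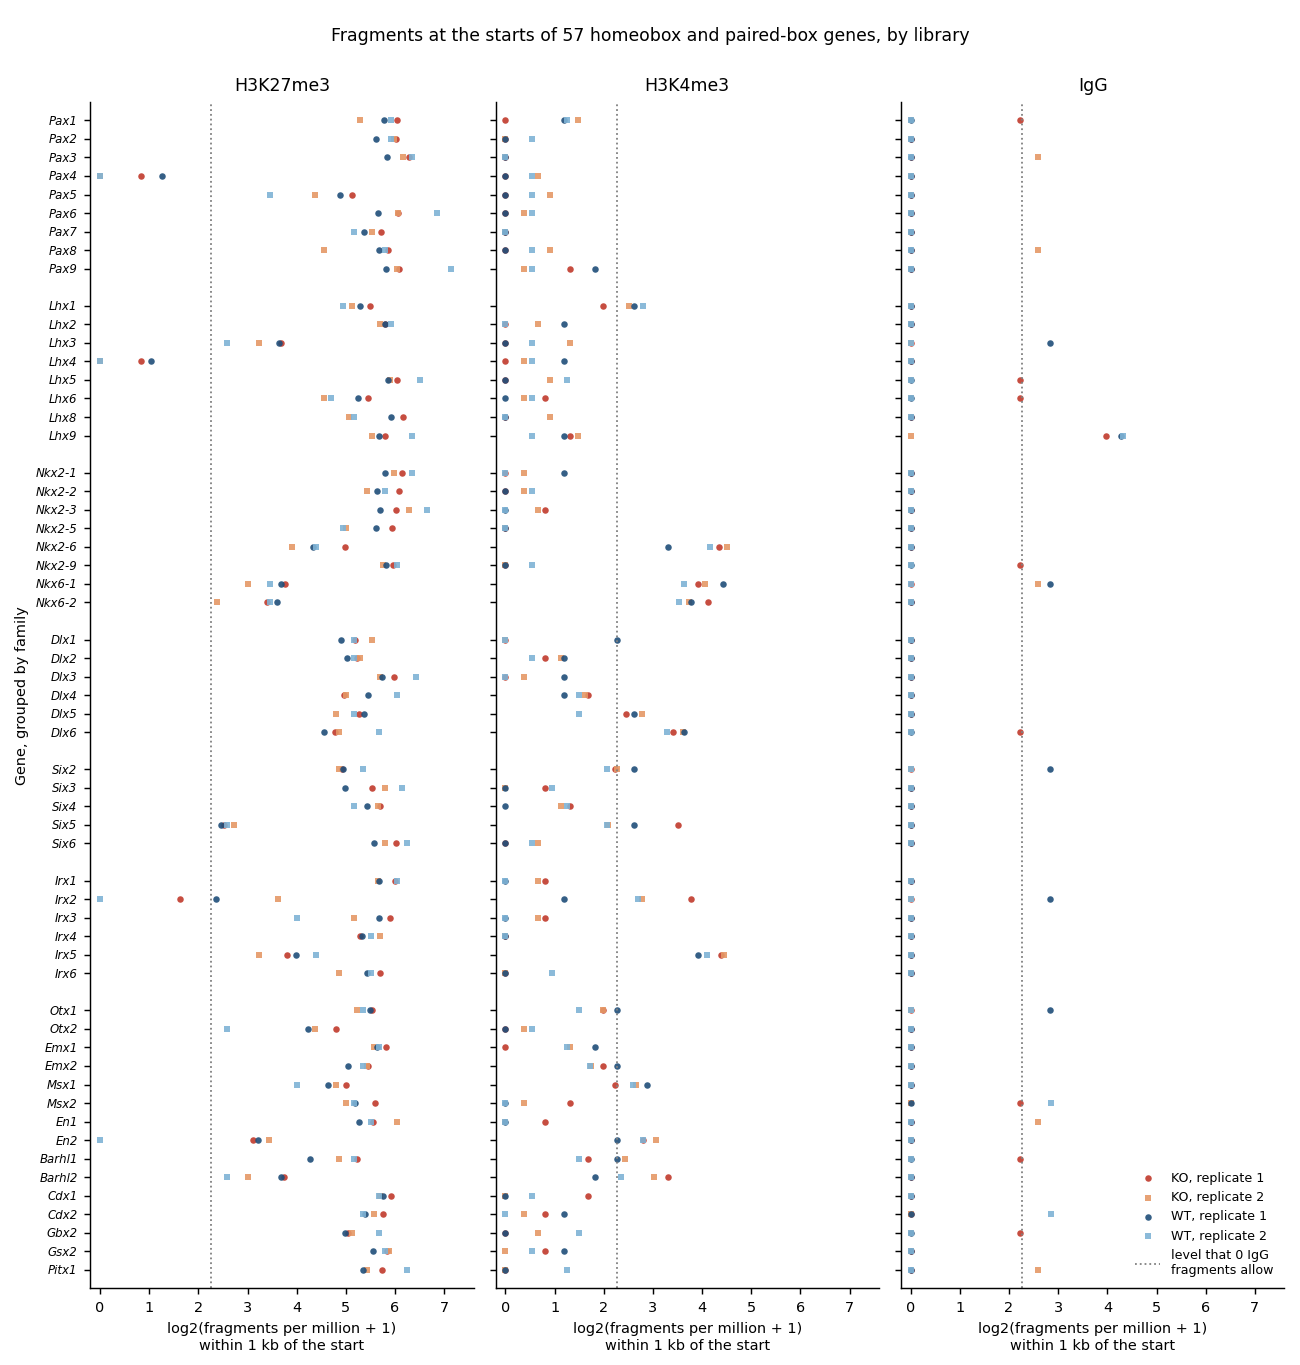
Levels of H3K27me3, H3K4me3, and IgG within 1 kb of the start of each of the 57 genes, as log2(FPM + 1), with 1 point per library and genes grouped by family. The dotted line is the level that 0 fragments over the 4 IgG libraries allow (3.79 FPM), which 55 of 57 mean levels of H3K27me3 and 13 of 57 of H3K4me3 exceed.

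In the limma-trend fit of log2(FPM + 1) over all 16 libraries, H3K27me3 was higher than IgG at 54 of the 57 starts (adjusted p under 0.05, background 26.7% of the 21882 genes tested) and lower at none (3.46%). The median log2 difference was 5.19 for the 57 genes and 0.15 for all genes on this scale. For 38 of the 57 genes no IgG fragment was seen. With every IgG level below 3.79 FPM set at 3.79 FPM (1 gene was above it), H3K27me3 was 10.9-fold higher than IgG at the median gene. For genes with an IgG fragment, 3.79 FPM is not an upper limit, so this median is not a lower bound. The libraries of each target came from the same 4 animals, and p-values measure only the spread between these libraries. The test of fragments summed over the libraries of a target, an exact binomial test added after seeing the data, called 53 of the 57 starts higher (background 23.5%).

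Pax9, needed for tooth, palate, and thymus development, had the highest mean over the 4 libraries. With fragments summed over libraries, where deep libraries weigh most, Pax3 was higher (90.8 against 84.8 times the genome mean). Pax9 had 66.7 and 64.6 FPM in the KO libraries and 55.3 and 140 FPM in the WT libraries, from 254, 46, 160, and 28 fragments, and 0 IgG fragments. Replicate 2 of WT was the highest and the shallowest library, and the other 3 lay close together. The log2 difference of Pax9 from IgG was 6.27 (SE 0.401, limma adjusted p = 2.41e-07), at least 21.5-fold. Nkx2-3 had 64.1 and 77.3 FPM in KO and 50.5 and 99.8 FPM in WT, a log2 difference of 6.16 (SE 0.265, limma adjusted p = 4.22e-08), at least 19.2-fold. Pax6 had 65.9 and 66.03 FPM in KO and 49.5 and 115 FPM in WT, a log2 difference of 6.16 (SE 0.306, limma adjusted p = 5.95e-08), at least 19.5-fold. In each of these 3 genes the KO libraries lay between the WT libraries.

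Pax4, Lhx4, and Irx2 were the 3 starts not called. Pax4, a regulator of insulin-producing cells, had 0.788 and 0 FPM in KO and 1.38 and 0 FPM in WT (log2 difference from IgG 0.52, SE 0.283, limma adjusted p = 0.235), and its window had only 11 CpG with an observed to expected ratio of 0.107. Over its gene body Pax4 had 0.192 FPM per kb, the lowest of the 57 genes, and it was not called there either. Lhx4, a pituitary regulator, had 0.788 and 0 FPM in KO and 1.04 and 0 FPM in WT (log2 difference 0.47, SE 0.261, limma adjusted p = 0.254). The RefSeq promoter of Lhx4 in the sequence table lies 9657 bp downstream of the GENCODE start, and the 2 kb around it had 37.0 and 47.8 FPM of H3K27me3 in KO and 35.6 and 24.9 FPM in WT, with 0 IgG fragments. Irx2 had 2.10 and 11.2 FPM in KO and 4.15 and 0 FPM in WT (log2 difference 1.19, SE 0.721, limma adjusted p = 0.302), and at another RefSeq start, 4390 bp away, the means were 37.4 FPM of H3K27me3 and 0.548 FPM of H3K4me3. Lhx4 and Irx2 thus had H3K27me3 near another annotated start, and Pax4 had little over its whole length.

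All 7 groups of these genes carried H3K27me3 at their starts. By the mean over libraries, the medians ran from 35.5 FPM for the Dlx genes to 54.1 FPM for the Pax genes, with the Irx genes at 40.6, Lhx at 42.8, Six2 to Six6 at 44.2, and Nkx at 47.7 FPM, while the 15 further genes had 39.2 FPM. In the Pax family, which carries the paired domain, the range was from Pax4 (0.543 FPM) to Pax9 (81.6 FPM). Among the Lhx genes, LIM-homeobox factors of motor neurons and pituitary, Lhx5 had the most (67.6 FPM) and Lhx4 the least (0.456 FPM). Among the Nkx genes Nkx2-3 had 72.9 FPM and Nkx6-2 had 8.68 FPM. The Dlx genes, which pattern the jaw, limb, and forebrain interneurons, were the most even, from Dlx6 (31.7 FPM) to Dlx3 (62.4 FPM). Six6, a gene of the eye and pituitary, had 60.1 FPM and Six5 had 4.96 FPM. Irx1 had 56.7 FPM and Irx2 had 4.37 FPM. Among the 15 further genes, Gsx2, a gene of the ventral forebrain, had 53.6 FPM and En2, an engrailed gene of the midbrain and cerebellum, had 6.44 FPM. These are levels in windows of equal length at the GENCODE starts, so the order of genes depends on the annotated start used. Around RefSeq promoters further downstream, Lhx4 had 36.3 FPM in 2 kb, and Otx2 had 59.8 FPM against 17.3 FPM at its GENCODE start. Pax9 had less there, 41.4 FPM.

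The comparison with 68 other homeobox genes outside the Hox clusters shows how far the 57 genes stand for the class. Those 68 genes had a median H3K27me3 of 35.4 FPM and 64 of them were higher than IgG (limma adjusted p under 0.05). A list of 26 Polycomb and trithorax genes includes genes for proteins that place and read such marks. Among these 26 genes, 7 were higher and 1 lower, against 26.7% and 3.46% of all genes. Of 20 spermatid markers, 1 was higher and 4 were lower. Among marker genes of other cells of the testis, 7 of 8 spermatogonial, 10 of 15 testis somatic, and 2 of 10 blood and immune genes were higher, and 0 were lower in each list.

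H3K27me3 extended well beyond the starts. Averaged over the 57 genes, it was 19.9 FPM per kb within 1 kb of the start, 15.8 at 5 kb downstream, 9.07 at 5 kb upstream, and 2.67 beyond 15 kb. For all genes the same values were 3.23, 1.07, 0.779, and 0.670 FPM per kb. The highest 500-bp step of the 57 genes lay 1000 to 1500 bp downstream of the start, at 21.6 FPM per kb.

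**Figure D2:**
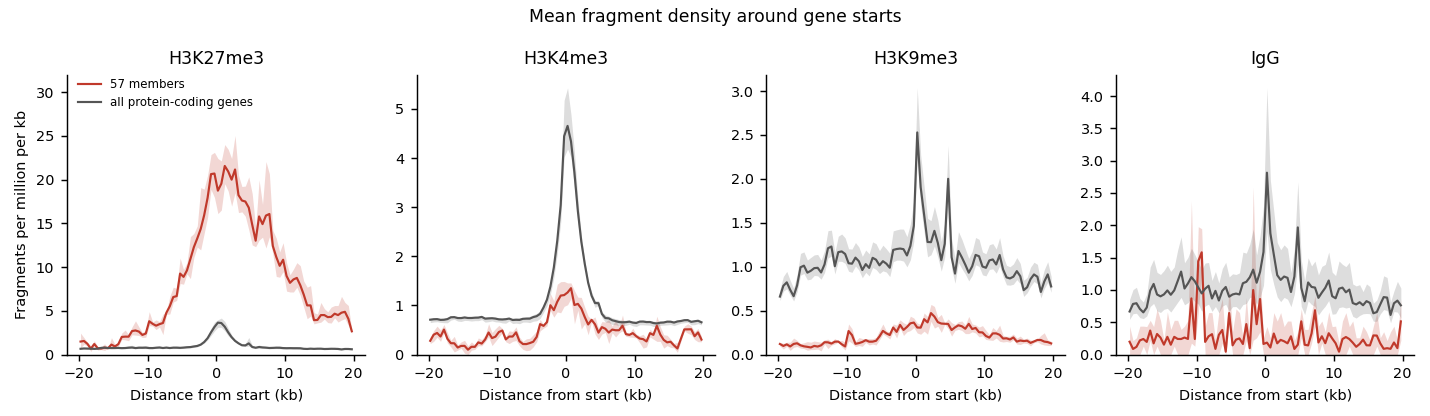
Mean density of fragments (FPM per kb, in 500-bp steps, each target with its own axis) from 20 kb upstream to 20 kb downstream of the start, for the 57 genes (red) and all protein-coding genes (grey). Lines are the mean and bands the range of the 4 libraries of each target, and for the 57 genes only H3K27me3 rises above the density of all genes around the start.

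Domains were built from 1-kb steps of the genome with at least 5 times the genome mean of H3K27me3, allowing a gap of 1 step. A domain covered the start of 52 of the 57 genes (23.5% of all genes), and the median length over the 57 genes was 16 kb (quartiles 9 and 19 kb), against 5 kb for all genes with a domain. Domains over 20 kb were found at 13 of the 57 starts and at 0.702% of all genes. At 3 times the genome mean this was 20 of 57 (1.10% of all genes) and at 10 times 10 of 57 (0.483%), with median lengths of 16 and 13 kb. The longest, 35 kb, covered Pax6. Six3, which acts in the forebrain and eye, had 29 kb, Gbx2, of the midbrain and hindbrain boundary, had 28 kb, and Cdx2, an intestinal and trophoblast regulator, had 27 kb. Dlx1 and Dlx2, neighbours transcribed toward each other, lay in a single domain of 28 kb, so they are not separate observations. The 5 starts without a domain were Pax4, Lhx4, Six5, Irx2, and Barhl2.

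Over the gene bodies, H3K27me3 was higher than IgG in 56 of the 57 genes (limma adjusted p under 0.05, background 23.8%) and lower in none (13.4%), and the summed test also called 56 (23.6%). The median density was 15.6 FPM per kb, against 0.141 for all genes. Per kb, bodies of Cdx2 (31.2 FPM per kb), Nkx2-1, a lung and thyroid regulator (30.5), and Irx1 (30.2) had the most. The Pax genes had the lowest family median over bodies, 3.94 FPM per kb, and the highest at starts, whereas the bodies of the Nkx genes and of Six2 to Six6 had 22.2 and 21.9 FPM per kb. Body densities are averages over the whole gene, so sequence outside a domain lowers them. Pax3 and Pax7 had 2.08 and 3.94 FPM per kb over bodies and 35.4 and 21.4 at starts, with domains of 17 and 19 kb. Whether gene length accounts for the family difference was not tested.

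H3K4me3 was low at most of these starts. The median was 0.565 FPM, against 3.24 FPM over all genes, and none of the 57 starts was in the top 10%. Their share of the H3K4me3 libraries was 0.0157% and 0.0156% in KO and 0.0135% and 0.0125% in WT, 2.89 to 3.65 times the genome average. In the limma-trend fit 20 of the 57 starts were higher than IgG (background 58%) and Lhx9 was lower (0.567%). Of the 20, 13 had a mean level above what 0 IgG fragments allow (48.4% of all genes), and 7 were called below that level. The exact binomial test of summed fragments called 7 of the 57 higher (background 42.4%), and limma-voom called 5 higher (background 36.8%) and 35 lower (35.1%), so the count of H3K4me3 calls depended on the fit.

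The 3 largest differences of H3K4me3 from IgG belonged to genes with 0 IgG fragments. Irx5, an Iroquois gene of heart and retina, had 20.03 and 20.9 FPM in KO and 14.0 and 16.05 FPM in WT (log2 difference 4.21, SE 0.224, limma adjusted p = 2.40e-08), at least 4.68-fold. Nkx2-6, a gene of the embryonic pharynx and heart, had 19.3 and 21.8 FPM in KO and 8.92 and 16.96 FPM in WT (log2 difference 4.08, SE 0.303, limma adjusted p = 3.41e-07), at least 4.42-fold. Nkx6-2 had 16.3 and 12.4 FPM in KO and 12.7 and 10.55 FPM in WT (log2 difference 3.79, SE 0.250, limma adjusted p = 1.24e-07), at least 3.43-fold. Both KO libraries were above both WT libraries at Irx5 and Nkx2-6, as at 27.8% of all genes with at least 10 H3K4me3 fragments. They overlapped at Nkx6-2. At the other end were Lhx9, with 1.48, 1.77, 1.27, and 0.458 FPM of H3K4me3 (KO, KO, WT, WT) and 4, 0, 3, and 3 IgG fragments (log2 difference -2.02, SE 0.672, limma adjusted p = 0.0226, and 0.46 and not called in 500-bp windows), Msx2 (-0.85, SE 0.613, adjusted p = 0.276), and Pax3 (-0.65, SE 0.450, adjusted p = 0.259). Lhx9, a gonad-forming gene, was the only one of the 57 starts with an IgG mean (13.02 FPM) above 3.79 FPM (3.42% of all genes).

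By family, the median H3K4me3 was below 0.5 FPM for Pax (0.262 FPM), Irx (0.333), Nkx (0.363), and Lhx (0.495), and was 1.01 FPM for Six2 to Six6 and 1.40 FPM for Dlx. Within families H3K4me3 was uneven. At the GENCODE starts all Pax genes were low. Pax9 was the highest by the mean over libraries (1.197 FPM). Pax1 was the highest by summed fragments (1.72 times the genome mean, against 1.03 for Pax9). Pax3 and Pax7, of neural crest and muscle, had no fragment in any library. The RefSeq promoter of Pax1 lies 3069 bp downstream of its GENCODE start. The 2 kb around it had 2.23 and 9.43 FPM of H3K4me3 in KO and 2.55 and 7.34 FPM in WT (mean 5.38 FPM), with 0 IgG fragments. Lhx1, of kidney and head formation, had 4.69 FPM and Lhx8 0.221 FPM. Nkx2-6 (16.7 FPM), Nkx6-1 (15.4 FPM), and Nkx6-2 (12.998 FPM) stood above the other 5 Nkx genes, which had at most 0.392 FPM, and Nkx2-5, the heart regulator, had none. Dlx6 had 10.3 FPM and Dlx3 0.392 FPM. Six5 had 5.48 FPM and Six6 0.262 FPM. Irx5 had 17.8 FPM and Irx4, a ventricle gene, had none. Of the 15 further genes, En2 had 5.77 FPM and En1 0.185 FPM.

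H3K27me3 was higher than H3K4me3 at 47 of the 57 starts (limma adjusted p under 0.05, background 21.1%) and lower at none (48.8%). Lower calls appeared under some alternatives, with 3 in 500-bp windows (48.9% of all genes), 2 with every deposited fragment (48.4%), 2 without WT replicate 1 (50.3%), and 1 each without KO replicate 1 (48.5%), with autosomal scaling (48.8%), and with a pseudocount of 4 (48.8%). Pax3 had the largest log2 difference, 6.15 (SE 0.450, limma adjusted p = 2.51e-07), at least 182-fold, followed by Pax6 (5.93, SE 0.306, adjusted p = 1.74e-08) and Nkx2-3 (5.80, SE 0.265, adjusted p = 8.96e-09). Irx2 (-0.71, SE 0.721, adjusted p = 0.421), Nkx6-2 (-0.59, SE 0.250, adjusted p = 0.0558), and Nkx6-1 (-0.53, SE 0.660, adjusted p = 0.512) had the smallest. The antibodies differ in yield, so this sets the 2 marks against each other only within each library's own total.

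Taking 5 times the genome mean of a mark, in fragments summed over its 4 libraries, as the limit, 43 of the 57 starts had H3K27me3 only (19.3% of all genes), 11 had both marks (4.59%), Irx2 had H3K4me3 only (43.5%), and Pax4 and Lhx4 had neither (32.6%). The 11 with both were Lhx1, Nkx2-6, Nkx6-1, Nkx6-2, Dlx5, Dlx6, Six5, Irx5, Msx1, En2, and Barhl2. The limit separated close values. Six2, a kidney progenitor gene, had 4.98 times the genome mean of H3K4me3 and was left out, while Dlx5 had 5.84 times. Irx2 had 4.87 times the genome mean of H3K27me3, while Six5 had 6.26 times. By the mean over libraries, a measure added after seeing the data, Six2 had 5.24 times the genome mean of H3K4me3 and Irx2 had 5.79 times that of H3K27me3, so 13 starts had both marks (4.63% of all genes), 42 had H3K27me3 only (18.5%), and 0 had H3K4me3 only (43.8%). Among the 68 other homeobox genes 9 had both marks and 53 had H3K27me3 only. Across the 57 genes the log2 levels of the marks went in opposite directions, with Pearson r = -0.41 and Spearman rho = -0.52 (n = 57 genes, which share the same libraries and are not replicates).

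**Figure D3:**
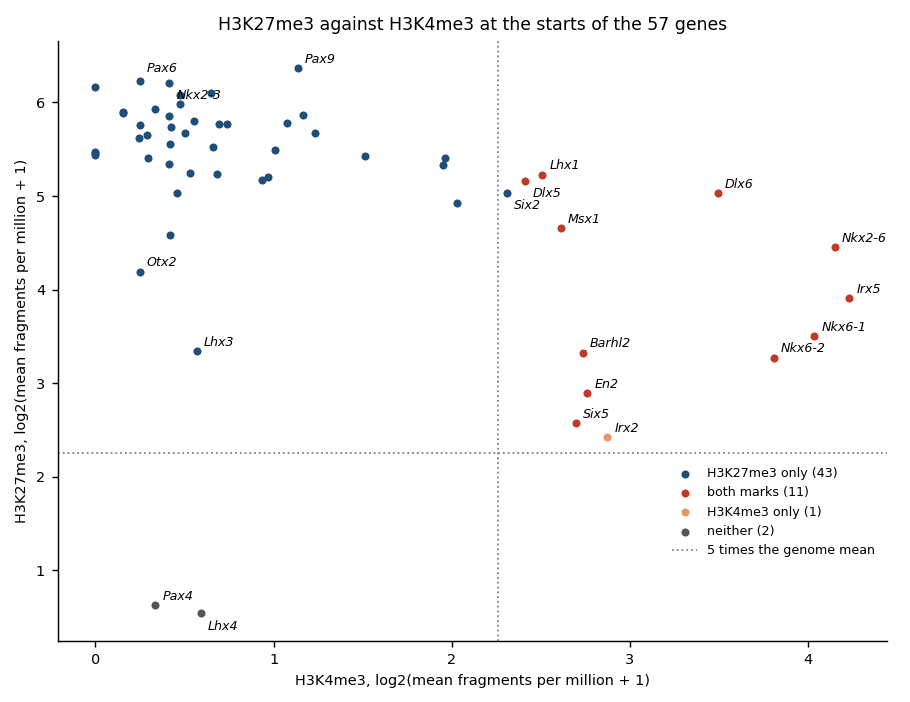
Mean H3K27me3 against mean H3K4me3 at each start, as log2(FPM + 1), where dotted lines mark 5 times the genome mean. Colours show the classes from fragments summed over libraries, so 13 points lie beyond both lines by their means, the 11 genes classed with both marks and Six2 and Irx2, while most genes sit at the upper left and Pax4 and Lhx4 at the lower left.

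Of the 11 genes with both marks, 5 had less H3K27me3 at the start than on both flanks, and so did the mean of the 11. Over the 11 genes with both marks, H3K27me3 was 9.16 FPM per kb within 1 kb of the start, 14.2 between 1.5 and 3.5 kb upstream, and 19.1 between 1.5 and 3.5 kb downstream. Over the 43 genes with H3K27me3 only, the start was the highest of the 3 at 24.0 FPM per kb, with 14.5 upstream and 21.3 downstream. The flanks of the 11 genes were 1.82 times the start on average, and this ratio was 1.77 and 1.81 in the KO libraries and 1.76 and 1.94 in the WT libraries. These are ratios of the means, in which genes with strong flanks weigh most. The ratio of the median gene was 1.42 and 1.5 in KO and 1.42 and 1 in WT, so in WT replicate 2 (10 genes with a fragment at the start) the median gene had no dip. In the 43 genes the ratio of means was 0.731 to 0.773 in the 4 libraries. H3K4me3 in the 11 genes was 4.73 FPM per kb within 1 kb and 0.813 at 5 kb downstream. The groups were formed from the levels at these starts, so the contrast is a description with no test.

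**Figure D4:**
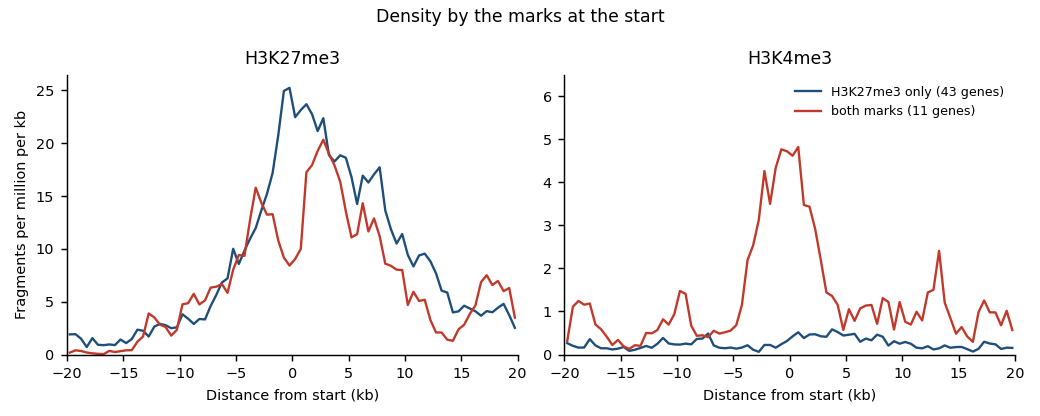
Mean H3K27me3 (left) and H3K4me3 (right) in FPM per kb around the start, for the 11 genes with both marks (red) and the 43 with H3K27me3 only (blue), averaged over the 4 libraries. The mean H3K27me3 of the 11 genes falls to 9.16 FPM per kb within 1 kb of the start, where H3K4me3 is at 4.73 FPM per kb.

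Gene by gene, 5 of the 11 had more H3K27me3 on both flanks than at the start. At Nkx6-1 the start had 5.17 FPM per kb between flanks of 25.4 and 26.7. Msx1, a gene of teeth, limb, and craniofacial bone, had 12.1 between 32.7 and 35.3, En2 had 3.22 between 17.3 and 27.2, Lhx1 had 18.2 between 31.1 and 31.0, and Barhl2, a retinal and spinal cord gene, had 4.52 between 6.06 and 20.5 FPM per kb. Irx2, with H3K4me3 only, had the same shape, with 2.19 at the start between 12.2 and 17.6 FPM per kb. Irx5, Nkx2-6, Dlx5, and Six5 had less upstream than at the start, and at Irx5 the upstream flank had 0.185 FPM per kb of H3K27me3 and 12.3 of H3K4me3. Of all 1006 protein-coding genes with both marks, 3.68% had more on both flanks, and their flanks held 0.540 times the level of the start. Among the 43 genes with H3K27me3 only, 6 had more on both flanks (Pax2, Six2, Six3, Irx3, En1, and Gbx2), against 1.48% of the 4243 genes of that kind. The 6 of the 11 genes with a RefSeq stretch within 1 kb held 17 to 42 CpG in it (median 31.5), the fewest at Six5, against a median of 18 in 26 of the genes with H3K27me3 only. Across the 57 genes the log2 H3K4me3 level and the CpG ratio correlated at Pearson r = 0.38 and Spearman rho = 0.39, and H3K27me3 and the CpG ratio at 0.17 and -0.25, as descriptions over n = 57 genes.

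H3K9me3 was below the level that 0 IgG fragments allow at all 57 starts. The median was 0.590 FPM, the highest level was 3.07 FPM, at Msx1, and none of the 57 was above 3.79 FPM (1.68% of all genes). The 57 starts held 0.00437% and 0.00378% of the fragments in KO and 0.00403% and 0.00301% in WT, 0.700 to 1.015 times the genome average, and 16 of the 57 were in the top 10% of all genes. Of the H3K9me3 fragments, 3963850 of 6746382 and 3342377 of 5241734 in KO lay on autosomes. In WT it was 3761745 of 6148973 and 3136799 of 5009169. All 57 genes are autosomal, and the genome average, which includes X and Y, lies above the autosomal average. The limma-trend fit called 5 starts higher than IgG (background 5.3%), all with 0 IgG fragments, and none lower (2.11%). With autosomal scaling it called 16 higher (7.77%). The test of summed fragments called none higher (background 0.0725%) and 1 lower (2.85%). Limma-voom called none higher (0.123%) and 45 lower (92.4%), so the direction against IgG depended on the fit, for these genes as for most others. Msx1 had 20 and 15 fragments in KO and 14 and 21 in WT (log2 difference 2.01, SE 0.265, limma adjusted p = 7.16e-04), Nkx2-1 had a log2 difference of 1.15 (SE 0.292, adjusted p = 0.0365), and Pax2, of kidney and optic nerve, 1.14 (SE 0.219, adjusted p = 0.00814). The lowest were Lhx9 (-2.41, SE 0.672, adjusted p = 0.0578), Nkx6-1 (-1.04, SE 0.660, adjusted p = 0.640), and Msx2 (-0.68, SE 0.613, adjusted p = 0.724). Levels of H3K9me3 followed those of H3K27me3 across the 57 genes, with Pearson r = 0.66 and Spearman rho = 0.80 (n = 57 genes). Every one of these H3K9me3 levels was below what 0 IgG fragments allow. Over bodies, the fit called 13 of the 57 genes higher (background 8.1%) and 2 lower (17%). Leaving out any 1 animal gave 3 to 6 higher (4.97% to 6.11% of all genes). The summed test called 1 higher (4.98%), Msx1 (binomial adjusted p = 0.0426), and 5 lower (32.1%). The body of Msx1 had 3.22 and 2.65 FPM per kb of H3K9me3 in KO and 2.62 and 2.29 in WT. H3K4me3 over bodies was higher than IgG in 24 (background 45.8%) and lower in Pax3 (4.82%), and the summed test called 15 higher (41.1%) and 2 lower (7.92%).

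None of the 57 genes passed the test of KO against WT for any target. Starts with at least 10 fragments over the 4 libraries were tested with limma-voom, which left 20 of the 57 starts for H3K4me3, 55 for H3K27me3, 42 for H3K9me3, and 1 for IgG. None was called, and the background was 0% of 12780, 6492, 4290, and 85 genes. At an unadjusted p under 0.05 there were 402, 154, 74, and 0 genes, of which 0, 0, 1, and 0 were among the 57. Limma-trend also called 0 in each. Over bodies 45, 57, 54, and 7 of the 57 genes were tested with 0 called (background 0%). Of all 18143, 13540, 17262, and 5181 genes tested over bodies, 51, 7, 97, and 71 had an unadjusted p under 0.05. Among the 57 this was 1 gene, for H3K4me3. With 2 libraries per genotype, 0 calls do not show that the levels were equal. With the pair of brothers as a block, over all genes 1 H3K27me3 start was called lower in KO, 38 H3K9me3 bodies higher and 7 lower, and 9 IgG bodies higher and 28 lower, and 0 of these were among the 57.

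At the 57 starts, KO libraries held 0.226% ± 0.0271 (SD, n = 2) of their H3K27me3 fragments and WT libraries 0.228% ± 0.0321 (SD, n = 2), with a log2 difference of -0.01. The pairs went in opposite directions, with 0.26 in pair 1 and -0.28 in pair 2. Of the H3K4me3 fragments, KO libraries held 0.0157% ± 0.0000626 (SD, n = 2) and WT libraries 0.0130% ± 0.000738 (SD, n = 2), with a log2 difference of 0.27 (0.22 and 0.33 by pair), larger than the SD between replicates (0.0581). In the limma-voom fit the median log2 difference was 0.17 over the 12780 starts tested and 0.28 over the 20 tested here. With median-of-ratios scaling these medians were -0.0084 and 0.14, and without WT replicate 2 they were 0.18 and -0.15, so the sign of the median of the genes tested here turned without that library. With 2 libraries against 2, an exact two-sided permutation test cannot go below p = 0.333. Of the 20 starts with at least 10 H3K4me3 fragments, both KO libraries were above both WT libraries at 6 and below at 1, and the background over all genes was 27.8% and 6.77%. For H3K27me3 it was 11 above and 5 below of 55 (5.48% and 9.43%), and for H3K9me3 12 above and 2 below of 42 (16.3% and 12.5%).

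The H3K4me3 starts with the smallest p in KO against WT were Barhl2, with 8.90 and 7.07 FPM in KO and 2.55 and 4.13 FPM in WT (log2 difference 0.97, SE 0.562), Dlx5 (1.017, SE 0.615), and Irx2 (0.88, SE 0.613). In the other direction they were Emx1 (-1.09, SE 0.976), Lhx1 (-0.48, SE 0.551), and Pax1 (-0.68, SE 1.01), and limma gave an adjusted p = 0.999 for all 6. For H3K27me3 they were Otx2, a forebrain and eye regulator with 26.8 and 19.7 FPM in KO and 17.6 and 4.99 FPM in WT (0.97, SE 0.691), Barhl1 (0.74, SE 0.571), and En2 (0.90, SE 0.885). In the other direction they were Dlx4 (-0.60, SE 0.572), Nkx6-2 (-0.65, SE 0.855), and Irx5 (-0.49, SE 0.730), with a limma adjusted p of 1 for all 6 after rounding. The WT library of replicate 2 had only 1 fragment at Otx2. For H3K9me3 they were Pax9 (1.36, SE 0.654), with 18 and 5 fragments in KO and 3 and 4 in WT, Pax2 (0.79, SE 0.613), and Lhx8 (0.79, SE 0.655), then Pax5 (-1.26, SE 1.024), Pax6 (-0.63, SE 0.660), and Lhx2 (-0.56, SE 0.722), and limma gave an adjusted p = 0.994 for all 6. Pax9 in H3K9me3 was the only one of these with an unadjusted p under 0.05, and none passed after adjustment over all genes tested.

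**Figure D5:**
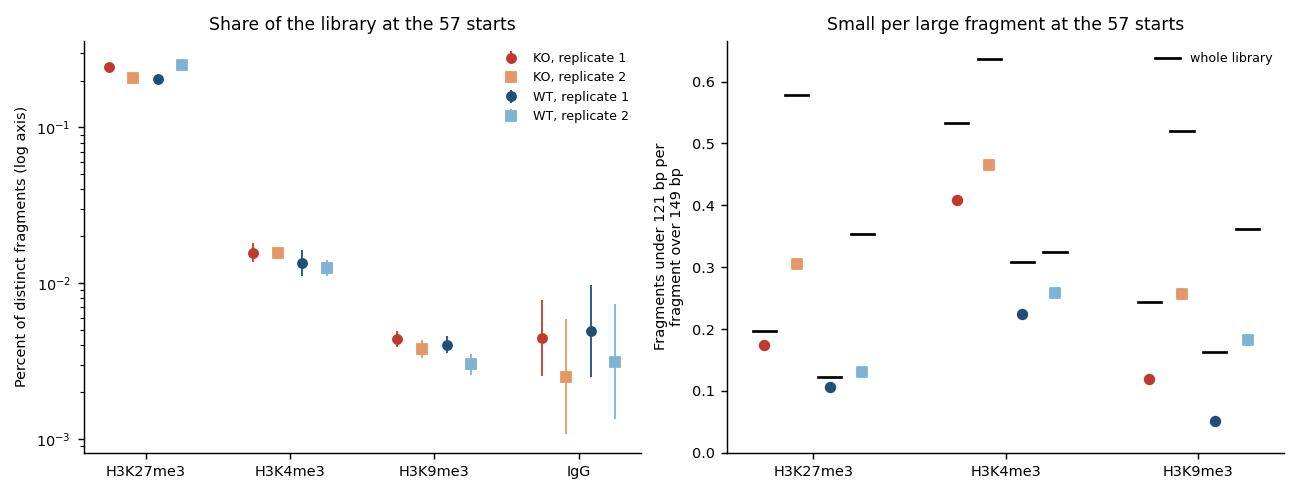
Left, percent of each library's distinct fragments at the 57 starts (log axis), with 95% Wilson intervals. Right, fragments of at most 120 bp per fragment of at least 150 bp at the 57 starts (points) and in the whole library (bars), where both KO points lie above the WT point of their pair for each mark.

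For each mark, fragment lengths at the 57 starts differed between KO and WT in the direction of the whole library, in both pairs. Micrococcal nuclease releases small fragments (here at most 120 bp), which are shorter than the DNA of a whole nucleosome, and large ones (at least 150 bp) of nucleosome length. At the 57 starts, small fragments per large fragment of H3K4me3 were 0.408 and 0.465 in KO and 0.224 and 0.258 in WT, a log2 difference of 0.86 (0.87 and 0.85 by pair) against 0.88 over the whole library. For H3K27me3 they were 0.174 and 0.305 in KO and 0.106 and 0.131 in WT, a log2 difference of 0.96 (0.71 and 1.22 by pair) against 0.69. For H3K9me3 they were 0.119 and 0.257 in KO and 0.0517 and 0.183 in WT, a log2 difference of 0.85 (1.205 and 0.49 by pair) against 0.55, from only 12 to 39 small fragments per library. KO was higher in both pairs for each mark, and the difference was larger than the SD between replicates for H3K4me3 (0.140) and H3K27me3 (0.431) and smaller for H3K9me3 (1.06). Without WT replicate 1 the H3K9me3 difference was -0.062, and without KO replicate 2 the H3K27me3 difference was 0.56. Over the whole library, the H3K27me3 ratio was 0.196 and 0.578 in KO and 0.123 and 0.353 in WT. The H3K9me3 ratio was 0.243 and 0.520 in KO and 0.163 and 0.361 in WT. The genotypes thus overlapped over the whole library for these marks, although KO was higher within each pair. The IgG libraries moved the same way over the whole library, at 1.52 and 1.31 small per large fragment in KO and 1.08 and 0.939 in WT, a log2 difference of 0.48 in each pair. The smallest exact two-sided permutation p of this design, 0.333, does not reach 0.05. The ratio at the 57 starts was below that of its whole library in all 12 libraries of the 3 marks.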

How the data were processed

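Spermatids of 2-month-old KO and WT brothers were profiled by AutoCUT&RUN in 16 libraries. The authors aligned paired ends to mm10 with Bowtie2 (version 2.3.4.3 in the submitters' processing notes), and deposited for each library each mapped fragment with its start, its end, and its length in bp, neither scaled nor pooled. Since these values are positions, fragments were counted here. Each combination of chromosome, start, and end on the 19 autosomes, X, and Y was counted once per library, because the lists hold repeated fragments (33.6% to 83.4% of those on these chromosomes), and they carry no molecular identifiers, so intervals cover counting error only. A fragment belonged to a window (1 kb on each side of the GENCODE vM21 start, 2001 bp) or gene body by its midpoint.

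Marks were compared with IgG, and H3K27me3 with H3K4me3, by limma-trend on log2(FPM + 1) over 16 libraries in 8 groups, and KO with WT by limma-voom per target on genes with at least 10 fragments over 4 libraries, with Benjamini-Hochberg adjustment over all genes tested and a threshold of 0.05. The scale with 1 added understates differences of low genes. Both fits were tested on simulated data. The 57 genes and all gene lists were chosen with earlier results of these data known. Per comparison of marks at the starts the 3 largest and 3 smallest log2 differences were given with statistics, and per KO against WT comparison the 3 smallest p in each direction. Over bodies counts and levels were given. For each family the highest and lowest members were named. Replicate numbers were taken to pair brothers, since the methods name pairs and the labels share a run code per number. The deviations of same-numbered libraries from their group means correlated at 0.259 for H3K4me3, 0.199 for H3K27me3, and 0.230 for H3K9me3. Pair and run code go together, so these correlations cannot tell them apart. Promoter stretches were from RefSeq (GRCm38.p6), for 42 of the 57 genes. The others (Cdx1, Dlx3, Dlx4, Dlx5, Dlx6, En2, Irx1, Irx5, Irx6, Lhx5, Nkx2-6, Otx1, Pax3, Pax4, and Pitx1) were not matched. Of 69 other homeobox genes listed, 68 were in the annotation. Tools were R 4.3.3, limma 3.58.1, Python 3.11.15, NumPy 2.4.6, pandas 2.3.3, SciPy 1.17.1, and matplotlib 3.10.9.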

Additional observations from a re-analysis of the deposited data

How the results depend on the processing

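The main limit is the depth of IgG, at which 0 fragments still allow 3.79 FPM. H3K27me3 was above that at 55 of 57 starts, H3K4me3 at 13, and H3K9me3 at 0. The alternatives recounted every deposited fragment, any overlap, other windows, RefSeq starts, other scaling, filters, pseudocounts and fits, thinned libraries, the replicate block, and leaving out each animal. An exact binomial test of summed fragments was added after seeing the data. The cause of each change was not tested.

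With the replicate block, 54 starts had H3K27me3 above IgG (26.7% of all genes) and 20 had H3K4me3 (58.2%). H3K9me3 was higher at 6 (5.28%), against 5 without the block, and 47 had H3K27me3 above H3K4me3 (21.4%). Over bodies the block gave 56, 24, and 15 (13 without it). Without the block, the shares of all genes called higher over bodies were 23.8%, 45.8%, and 8.1%. In each KO against WT comparison the block gave 0 of the 57. Leaving out 1 animal, with its libraries of all 4 targets, gave 51 to 53 starts for H3K27me3 (22.7% to 26.6% of all genes), 15 to 20 for H3K4me3 (52.4% to 56.8%), 3 to 5 for H3K9me3 (3.83% to 5.86%), and 46 to 48 for H3K27me3 above H3K4me3 (19.7% to 22.3%). Over bodies it gave 55 to 56 (17.2% to 22.8%), 19 to 21 (32.4% to 39.8%), and 3 to 6 (4.97% to 6.11%), and 0 in KO against WT. The H3K9me3 bodies called, 13 with all libraries, numbered 3 when KO replicate 2 was dropped (4.97%) and 4 when KO replicate 1 was (5.22%). They numbered 5 after dropping WT replicate 2 (6.11%) and 6 after dropping WT replicate 1 (5.80%), where the percentages are the shares of all genes called. At the starts, 3 were called after dropping replicate 1 of either genotype, against 5 with all libraries. Domain length was 15 to 16 kb without 1 library. The log2 difference of the small to large ratio without 1 library, added after seeing the data, was 0.75 to 0.96 for H3K4me3, 0.56 to 1.37 for H3K27me3, and -0.062 to 1.76 for H3K9me3, where leaving out WT replicate 1 turned the sign. Without a whole pair it was 0.85 to 0.87, 0.71 to 1.22, and 0.49 to 1.205.

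For H3K4me3 against IgG, starts higher numbered 5 with limma-voom (36.8% of all genes), 6 with thinned libraries (44.2%), and 7 with the binomial test (42.4%), against 20 (58%), and bodies 12 (29.5%), 13 (27.03%), and 15 (41.1%), against 24 (45.8%). For H3K9me3, 5 starts were higher (5.3% of all genes). They numbered 3 with every deposited fragment (5.41%), 8 with any overlap (5.61%), 16 with autosomal scaling (7.77%), 0 in 500-bp windows (3.68%), 13 in 2.5-kb windows (6.80%), 0 with limma-voom (0.123%), 14 and 1 with pseudocounts of 0.5 and 4 (6.59% and 3.71%), 12 with a filter of 10 fragments (33.6%), 0 with thinned libraries (0.463%), and 0 with the binomial test (0.0725%). H3K9me3 bodies, 13 (8.1%), numbered 23 with autosomal scaling (10.6%), 5 without the first 1 kb (7.29%), 1 with limma-voom (3.95%), 21 and 3 with pseudocounts of 0.5 and 4 (8.85% and 7.31%), 0 with thinned libraries (2.90%), and 1 with the binomial test (4.98%). Limma-voom called 13 of the 57 bodies lower in H3K9me3 (72.7%). The H3K4me3 small to large log2 difference was 0.63 over bodies and 1.21 with every deposited fragment.

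Directions turned as follows, in log2 differences, and none of those named was called except where said. With limma-voom, H3K27me3 against IgG was -1.22 at Lhx4 and -1.09 at Pax4, and H3K9me3 against IgG -1.002 at Nkx2-1 and -1.05 at Pax2. In 500-bp windows, H3K4me3 against IgG was 0.46 at Lhx9 and 0.29 at Msx2, H3K27me3 against IgG -0.052 at Irx2, and H3K9me3 against IgG 0.48 at Lhx9, 0.16 at Nkx6-1, and 0.43 at Msx2. With every deposited fragment Msx2 was at 0.0187 for H3K4me3 against IgG. H3K27me3 against H3K4me3 was 1.87 at Irx2 (limma adjusted p = 0.00898), 0.58 at Nkx6-2, and 1.33 at Nkx6-1 in 2.5-kb windows, 4.73 at Irx2 at RefSeq starts (limma adjusted p = 6.52e-09), and 0.62 at Nkx6-2 with thinned libraries. In KO against WT, H3K4me3 of Emx1 was 0.22 in 2.5-kb windows and H3K9me3 of Pax2 -0.00023 at RefSeq starts. Leaving out 1 animal spanned -1.37 to 0.0133 for Msx2 in H3K9me3 against IgG and -1.68 to 0.26 for Irx2 in H3K27me3 against H3K4me3. In KO against WT it spanned -0.027 to 1.44 for H3K4me3 at Dlx5, -0.10 to 0.89 for H3K27me3 at Barhl1, and -1.47 to 0.0931 for H3K9me3 at Pax6, and Pax1 H3K4me3 could be fitted once, at 0.18. Of the alternatives for single genes, 552 kept the direction and the side of the threshold, 20 passed it and 20 no longer did, and 25 turned.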
